A study of Mus musculus with 6 samples.

Results

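The genes examined here are 36 neuronal genes, chosen by name: the repressor gene Rest, genes that REST is known to silence outside neurons, and genes of the synapse and the neuronal cytoskeleton. They were measured in E14 mouse embryonic stem cells of strain 129/Ola, a line derived from the inner cell mass of the blastocyst. The annotation named 77 of the 45281 probes for 35 of the 36 genes and no probe for Grin1. Of the 36 genes, 19 had a probe detected well enough to be tested, out of 10711 genes tested on these arrays.

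Both genotypes carry the Δ3 allele of Lsd1 (current symbol Kdm1a), from which exon 3 is deleted. The Δ3/Δ3 cells carry it on both chromosomes, while the Lox/Δ3 cells, the controls, keep an allele whose exon 3 is flanked by loxP sites. Each genotype was profiled on 3 arrays, 6 in all, which the series text calls biological replicates. Whether each came from its own clone is not stated, so the tests below set the genotypes against the spread among these 6 samples, which may be technical. No wild-type cells were profiled, so a value is always that of cells without the intact allele against cells with 1.

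REST, also known as NRSF, is a zinc finger protein that binds an element called RE1 near many neuronal genes and keeps them silent in cells that are not neurons. Through its ends it recruits SIN3 and the CoREST complex, and CoREST brings histone deacetylases and LSD1, which removes methyl groups from histone H3. In embryonic stem cells the terminal neuronal genes under REST are normally off or low, and they are released when neurons form. The comparison asks which of these genes differ in level once the intact Lsd1 allele is gone.

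The arrays detected 40.9% to 43.7% of their probes at a detection p under 0.05, and their correlations across genes lay between 0.966 and 0.990. All 15 embryonic stem cell markers listed for the purpose, among them Pou5f1 and Nanog, were detected on all 6 arrays. Kdm1a, the targeted gene, was at 10.56, 10.20 and 10.41 on Δ3/Δ3 arrays 1, 2 and 3 and at 12.06, 11.76 and 12.01 on Lox/Δ3 arrays 1, 2 and 3 (normalized log2 signal; limma adjusted p = 0.0128, and 0.0744, 0.0939 and 0.0802 without Δ3/Δ3 array 1, 2 or 3). Whether its probe lies in exon 3 was not examined. Lox/Δ3 array 3 stood apart in primitive endoderm markers, whose summed linear level over 12 genes was 29207 there and at most 12254 on the other arrays.

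Of the 35 genes with a probe, 14 were detected on no array of either genotype and 19 had a probe kept for testing. Of the 77 probes, 47 (61.0%) were detected on none of the 6 arrays, 18 on all of them, and 25 were kept for testing. The share of these 77 probes detected on an array ran from 28.6% to 35.1%. The 16 genes that had a probe but no kept one were Rest, Scg2, Scg3, Chgb, Syt1, Snap25, Rab3c, Cplx2, Syn2, Scn3b, Gria2, Dlg4, L1cam, Stmn3, Nefl and Calb1. Their signals lay between 43.3 and 102.8 on the non-normalized linear scale, where the lowest detected signal of an array was between 83.7 and 102.6. Of these 16, 14 were detected on no array, Scn3b on 1 array (a Lox/Δ3 array) and L1cam on 2, 1 of each genotype. Scn3b and L1cam were thus detected on too few arrays to be tested. For the 14 genes detected on no array, the signals bound only what these probes read in either genotype, not the level of the gene. A probe can stay below detection while another of its gene is bright. Of the Vgf probes, ILMN_1232310 was detected on no array, while ILMN_2925923 read 144 to 560. No fold is given for any of the 16. Snap25 and Syt1, of synaptic vesicle fusion, and Gria2, an AMPA-type glutamate receptor subunit, are among the 14.

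The single Rest probe (ILMN_2615160) read 59.9, 58.2 and 56.2 on the Δ3/Δ3 arrays and 59.0, 57.6 and 58.5 on the Lox/Δ3 arrays, with a lowest detection p of 0.476. It was not well above background on any array, and the groups overlapped. A level of Rest in these cells is therefore not given. The brightest probe of Syt1, a calcium sensor of vesicle fusion, read 78.7, 72.9 and 81.2 on Δ3/Δ3 and 69.0, 64.7 and 74.2 on Lox/Δ3 arrays, all below detection.

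**Figure D1:**
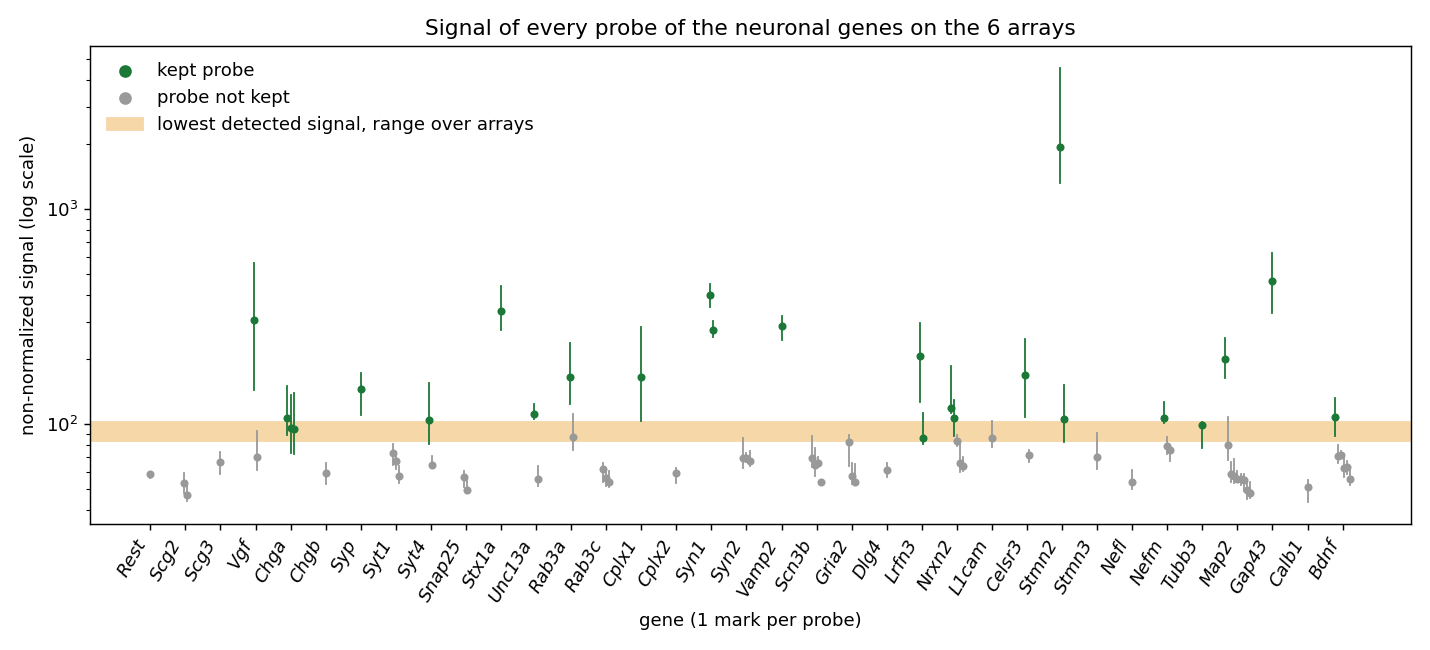
Non-normalized signal (log scale) of each of the 77 probes on the 6 arrays, by gene, with a dot at the median and a line from the lowest to the highest array. Green probes were kept for testing, and the shaded band is the lowest detected signal, from 83.7 to 102.6 across arrays. Most probes sit in or under the band, and a Stmn2 probe has the highest signal.

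Of the 19 tested genes, Cplx1 and Lrfn3 were called lower in Δ3/Δ3 cells and none was called higher. These 2 are 10.5% of the 19, beside a background of 0.28% of all genes tested that were called lower, and 0 were called higher beside a background of 1.03%. In either direction the background was 1.31%. Genes were called where limma gave an adjusted p below 0.05 (Benjamini-Hochberg, over the 10711 genes). At an unadjusted p under 0.05, 5 of the 19 were lower and 3 higher, where the background was 8.47% and 9.7%. In 9 of the 19, or 47.4%, the arrays of the genotypes did not overlap, against 23.8% of all genes. Of the 19 differences 14 were below 0 and 5 above, with a median of -0.24 on the log2 scale, beside a median of -0.03 and 53.6% below 0 over all genes. With cyclic loess the split was 13 and 6. The members were chosen with earlier results of these data known, so these shares describe the list and are no test of it.

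The counts above cover the detected genes alone. Of the 19, 16 were detected on all arrays. The other 3 were Syt4, detected on 2 arrays of each genotype, Nefm, on 3 Δ3/Δ3 and 2 Lox/Δ3 arrays, and Tubb3, on 1 and 2. In whole-culture RNA, fewer expressing cells and less RNA per cell cannot be told apart.

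**Figure D2:**
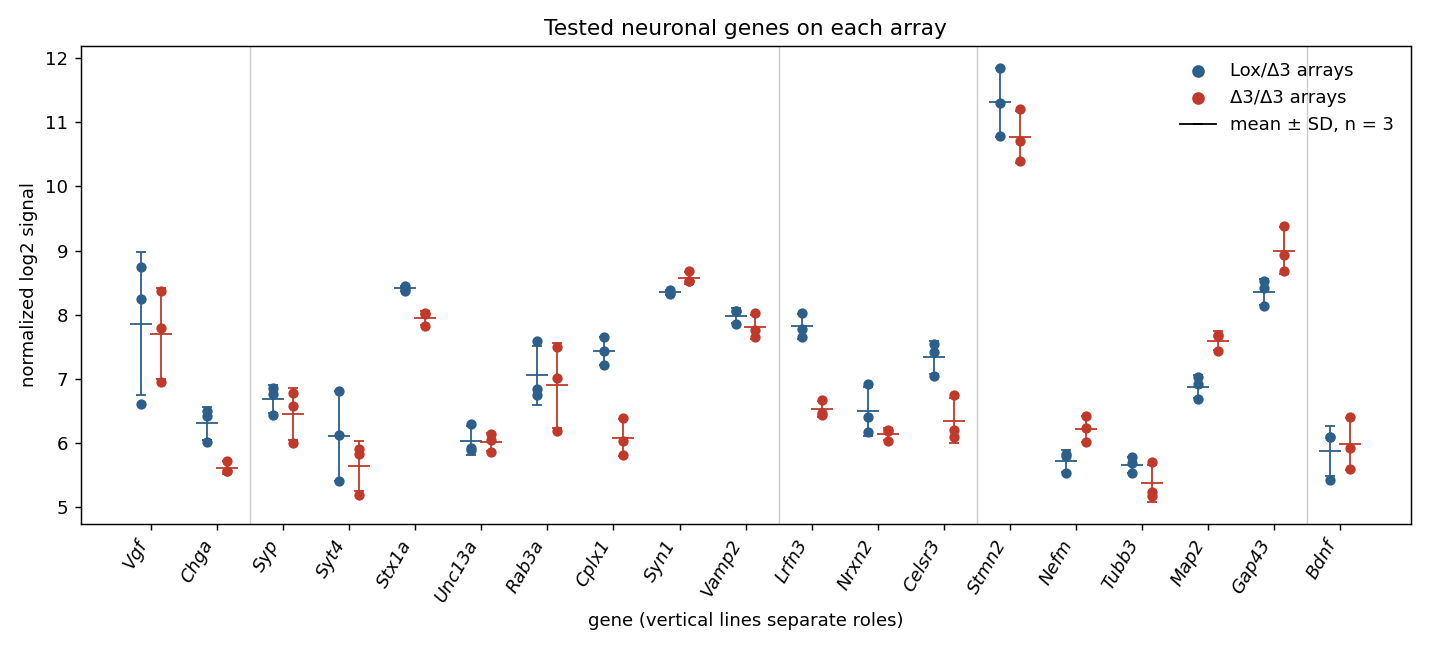
Normalized log2 signal of the 19 tested genes on each array (blue, Lox/Δ3; red, Δ3/Δ3), with the mean ± SD of 3 arrays and vertical lines between roles. Cplx1, Lrfn3, Celsr3, Chga and Stx1a have all red points under all blue ones, and Map2, Gap43, Nefm and Syn1 the reverse.

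Among genes of the synaptic vesicle and its fusion machinery, Cplx1 fell and the other 7 tested genes gave no call. Cplx1 encodes complexin 1, a small protein that binds the assembled SNARE complex and times vesicle release. Its single probe (ILMN_1226042) was at 6.39, 6.03 and 5.82 on Δ3/Δ3 arrays 1, 2 and 3 and at 7.65, 7.43 and 7.22 on Lox/Δ3 arrays 1, 2 and 3 (normalized log2 signal). Every Δ3/Δ3 array was below every Lox/Δ3 array. The means were 6.08 ± 0.29 and 7.43 ± 0.22 (SD, n = 3), a log2 difference of -1.36 ± 0.18 (SE; 95% interval -1.78 to -0.93), which is 2.56-fold lower (limma adjusted p = 0.0281). On the non-normalized scale its signal went from 196 to 284 in Lox/Δ3 cells down to 103 to 135 in Δ3/Δ3 cells, close to the detection limit. The call was lost without Δ3/Δ3 array 1, 2 or 3 (limma adjusted p = 0.0839, 0.103 and 0.0985) and without Lox/Δ3 array 1 or 2 (0.0559 and 0.0531), with differences between -1.23 and -1.51. Its paralogue Cplx2 was not detected on any array.

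Stx1a encodes syntaxin 1A, the SNARE protein of the neuronal plasma membrane that complexin binds together with SNAP25. It was at 7.83, 8.03 and 8.005 on the Δ3/Δ3 arrays and at 8.37, 8.41 and 8.45 on the Lox/Δ3 arrays. Its groups were tight and did not overlap, but the log2 difference of -0.45 ± 0.12 (SE) did not pass (limma adjusted p = 0.107). Syn1, which encodes synapsin 1 on the surface of synaptic vesicles, was at 8.52, 8.53 and 8.68 in Δ3/Δ3 and at 8.39, 8.32 and 8.34 in Lox/Δ3 cells. It was the 1 tested vesicle gene with a difference above 0, 0.23 ± 0.12 (SE), with no overlap between groups and no call (limma adjusted p = 0.364). A further Syn1 probe was at 0.19 with overlapping arrays.

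The remaining vesicle genes overlapped between genotypes. The log2 difference was -0.24 for Syp, a vesicle membrane protein, and -0.18 for Vamp2, the SNARE of the vesicle. It was -0.16 for Rab3a, a GTPase of the vesicle surface, and -0.02 for Unc13a, which primes vesicles for fusion. Syt4, an unusual member of the synaptotagmin family, was at -0.47. Limma's adjusted p for these 5 genes ran from 0.526 to 0.965. The 95% interval for Unc13a ran from -0.38 to 0.34, and that for Syt4, -1.27 to 0.32, leaves room for a 2-fold fall.

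Among receptors, scaffolds and adhesion molecules of the synapse and axon, 3 of 8 genes could be tested. Lrfn3 fell in Δ3/Δ3 cells, and Celsr3 and Nrxn2 did not pass. Lrfn3 encodes a leucine-rich repeat adhesion protein, also called SALM4, at the synaptic membrane. Its brighter probe (ILMN_2930680) was at 6.44, 6.47 and 6.68 on the Δ3/Δ3 arrays and at 7.65, 8.02 and 7.78 on the Lox/Δ3 arrays. Every Δ3/Δ3 array was well below every Lox/Δ3 array. With means of 6.53 ± 0.13 and 7.82 ± 0.19 (SD, n = 3) the log2 difference was -1.29 ± 0.15 (SE; 95% interval -1.62 to -0.95), or 2.44-fold lower (limma adjusted p = 0.0194). It ranked 11th by p among all genes. The other Lrfn3 probe (ILMN_2771787), detected on 1 Δ3/Δ3 and 2 Lox/Δ3 arrays, was at -0.26 and overlapped, and the mean over both probes was -0.77 (limma adjusted p = 0.0388). The call was lost without Δ3/Δ3 array 1, 2 or 3 (limma adjusted p = 0.1005, 0.103 and 0.0802) and held without any 1 of the Lox/Δ3 arrays.

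Celsr3 encodes a large cadherin with 7 membrane spans that guides axon tracts. It was at 6.75, 6.09 and 6.20 on the Δ3/Δ3 arrays and at 7.41, 7.54 and 7.04 on the Lox/Δ3 arrays, with no overlap. The log2 difference of -0.99 ± 0.21 (SE; 95% interval -1.47 to -0.50) did not pass (limma adjusted p = 0.0639). It passed in 4 of 18 alternative settings. Among them were the fit without Lox/Δ3 array 3 (limma adjusted p = 0.0398), at -1.13, median scaling (0.0384) and array weights (0.0177). Those 3 settings called 275, 261 and 512 of all genes, beside 140 in the main fit. With another array left out the limma adjusted p reached 0.186. Nrxn2, a presynaptic neurexin, was at 6.03, 6.20 and 6.19 in Δ3/Δ3 and at 6.91, 6.40 and 6.16 in Lox/Δ3 cells. Its groups overlapped through Lox/Δ3 array 3 (log2 difference -0.35 ± 0.19 SE, limma adjusted p = 0.393), and its other kept probe was at -0.44. Scn3b, a sodium channel subunit, Gria2, the postsynaptic scaffold gene Dlg4 and the adhesion gene L1cam had no kept probe.

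**Figure D3:**
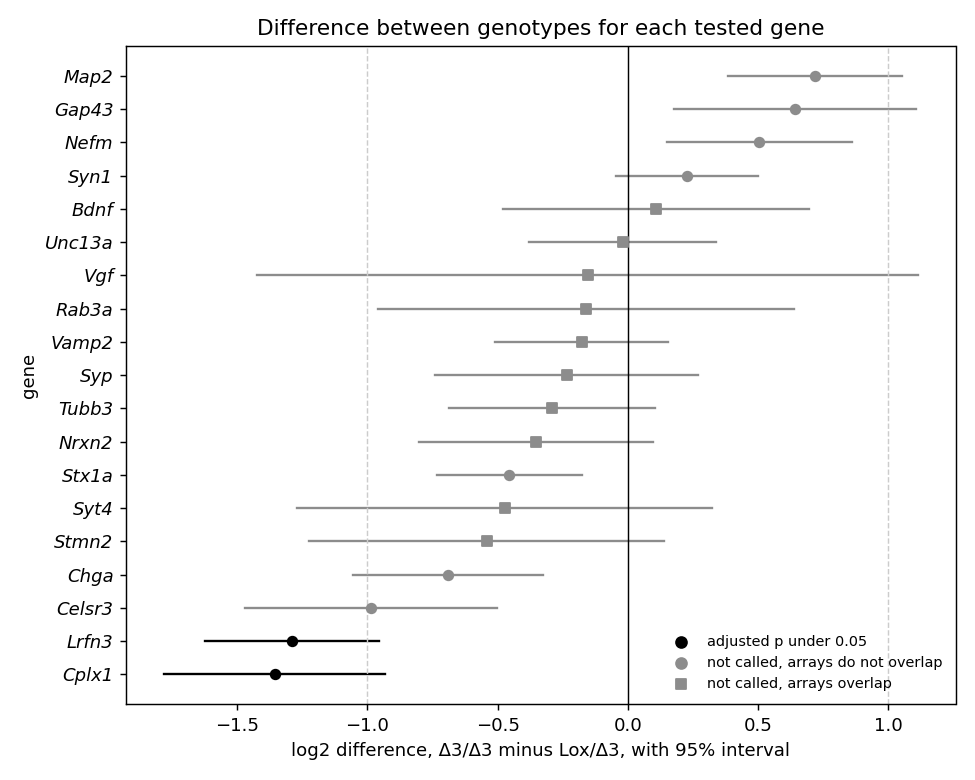
Log2 difference, Δ3/Δ3 minus Lox/Δ3, of the 19 tested genes with its 95% interval, ordered by size; dashed lines mark a 2-fold change. Black marks genes called (adjusted p under 0.05), circles genes whose arrays do not overlap. Cplx1 and Lrfn3 are the 2 called genes, at -1.36 and -1.29.

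The start regions of the members show which of them hold a match to the core of RE1 and whether the 2 fallen genes do. RefSeq promoter windows (build GRCm38.p6, 300 bases, from 250 before to 50 after a start) were on hand for 24 of the 36 genes, 36 windows in all. The motif searched was CAGCACC, then 2 bases of any kind, then GGACAG, the left and right arms of RE1 in their usual order and spacing, on both strands, with up to 2 mismatches over the 13 fixed bases. Of the 36 windows 4 (11.1%) held such a match, against 1.92% of 32851 windows of all genes. The list includes genes chosen because REST silences them, so a higher share can follow from that choice and is no result about these cells. These 4 were those of Celsr3, Syn1 and Gria2 with 1 mismatch each and of Grin1 with 2. The arms alone, which are part of that motif, were in 19.4% (CAGCACC) and 25% (GGACAG) of the members' windows and in 7.14% and 22.2% of all windows. Windows of the members had a median of 18 CpG dinucleotides, those of all genes 7.

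The 3 windows with 1 mismatch are shown first, each 5′ to 3′ on the strand of its gene, with the matched run in capitals. Celsr3 lies on the plus strand (chr9:108825795-108826094), Syn1 (chrX:20920869-20921168) and Gria2 (chr3:80802786-80803085) on the minus strand. In Gria2 the match runs on the opposite strand, so the capitals are its reverse complement.
Celsr3: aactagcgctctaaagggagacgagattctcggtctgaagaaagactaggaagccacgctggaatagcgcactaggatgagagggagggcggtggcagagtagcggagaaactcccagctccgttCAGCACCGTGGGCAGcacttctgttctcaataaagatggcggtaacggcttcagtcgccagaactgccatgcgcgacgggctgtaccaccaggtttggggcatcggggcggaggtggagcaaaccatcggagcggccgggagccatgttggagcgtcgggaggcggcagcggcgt
Syn1: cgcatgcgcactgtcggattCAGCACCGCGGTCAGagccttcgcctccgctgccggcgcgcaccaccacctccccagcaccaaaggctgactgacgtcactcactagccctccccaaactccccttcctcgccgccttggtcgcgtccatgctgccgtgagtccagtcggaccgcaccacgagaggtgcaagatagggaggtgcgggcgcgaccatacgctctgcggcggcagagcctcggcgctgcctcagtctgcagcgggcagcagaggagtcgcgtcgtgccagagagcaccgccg
Gria2: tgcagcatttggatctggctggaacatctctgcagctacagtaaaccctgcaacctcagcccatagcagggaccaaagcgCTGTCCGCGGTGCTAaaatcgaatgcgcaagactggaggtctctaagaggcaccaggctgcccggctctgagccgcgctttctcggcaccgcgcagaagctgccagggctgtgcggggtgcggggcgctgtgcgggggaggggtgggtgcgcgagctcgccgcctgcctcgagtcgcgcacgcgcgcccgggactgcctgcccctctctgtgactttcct

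The windows of Cplx1 (chr5:108549978-108550277, minus strand) and Lrfn3 (chr7:30362723-30363022, minus strand), the 2 fallen genes, held no match and carry no capitals. Their best runs had 4 and 3 mismatches. The window of Lrfn3 contains the right arm by itself, as its reverse complement CTGTCC, and that of Cplx1 neither arm.
Cplx1: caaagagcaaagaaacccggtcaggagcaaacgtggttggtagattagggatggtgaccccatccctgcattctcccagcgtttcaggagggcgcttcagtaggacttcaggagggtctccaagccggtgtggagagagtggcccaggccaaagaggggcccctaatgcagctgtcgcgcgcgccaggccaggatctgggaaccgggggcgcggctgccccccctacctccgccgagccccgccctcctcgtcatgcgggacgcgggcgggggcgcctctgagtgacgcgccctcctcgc
Lrfn3: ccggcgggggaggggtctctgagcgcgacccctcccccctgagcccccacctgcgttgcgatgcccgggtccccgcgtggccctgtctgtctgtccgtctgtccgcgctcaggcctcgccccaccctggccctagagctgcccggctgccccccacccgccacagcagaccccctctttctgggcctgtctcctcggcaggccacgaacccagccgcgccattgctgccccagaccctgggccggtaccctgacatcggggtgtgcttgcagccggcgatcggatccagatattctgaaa

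None of the 3 genes with the closest matches was called: Celsr3 was at -0.99 and Syn1 at 0.23, each with no overlap, and Gria2 was not detected in either genotype. The 95% interval of Syn1 ran from -0.05 to 0.50, so its direction is not settled. RE1 elements also lie outside such windows, in introns and far upstream, and these were not searched. A match in letters does not show binding, and no REST binding was measured here.

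Among dense-core granule genes, whose products are stored and released with neuropeptides, 2 of 5 could be tested and neither was called. Chga encodes chromogranin A, the main granule protein of chromaffin cells. It was at 5.73, 5.57 and 5.56 on the Δ3/Δ3 arrays and at 6.49, 6.01 and 6.42 on the Lox/Δ3 arrays, with no overlap. The log2 difference was -0.69 ± 0.16 (SE; 95% interval -1.06 to -0.33; limma adjusted p = 0.0758). Its other 2 probes stood at -0.69 and -0.72, also with no overlap, although on Δ3/Δ3 arrays they were detected 2 times and 1 time of 3. Probes of a gene share the RNA of the same arrays, so they are no further replicates.

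Vgf, a granule peptide precursor induced by neurotrophins, differed far more between arrays of a genotype than between genotypes. It was at 7.79, 8.37 and 6.96 in Δ3/Δ3 and at 8.74, 8.24 and 6.61 in Lox/Δ3 cells (log2 difference -0.15 ± 0.55 SE, limma adjusted p = 0.922). Its pooled SD within genotypes, 0.935, was above that of 99.7% of genes tested. Lox/Δ3 array 3 and Δ3/Δ3 array 3 were the lowest of their groups. Without Lox/Δ3 array 3 the difference was -0.78, and without Lox/Δ3 array 1 it was 0.28. The granins Scg2, Scg3 and Chgb had no kept probe.

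Genes of the neuronal cytoskeleton and the growing axon included all 3 of the members higher at an unadjusted p under 0.05. None of these 3 passed over all genes. Map2, a microtubule protein of dendrites, was at 7.43, 7.67 and 7.69 on the Δ3/Δ3 arrays and at 6.68, 6.92 and 7.03 on the Lox/Δ3 arrays. Its groups did not overlap, with a log2 difference of 0.72 ± 0.15 (SE; 95% interval 0.39 to 1.05; limma adjusted p = 0.0598). It passed in 3 of 18 alternative settings, among them without Lox/Δ3 array 3, at 0.79 (limma adjusted p = 0.0476), and with array weights (0.0236). With another array left out the limma adjusted p reached 0.171. Only this probe (ILMN_3137552) of the 9 for Map2 was kept. A probe detected on Lox/Δ3 array 1 alone (ILMN_1226553) read 108 there. That probe went the other way, at -0.40 with overlapping arrays.

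Gap43, a growth cone protein, was at 8.68, 9.39 and 8.94 in Δ3/Δ3 and at 8.41, 8.52 and 8.13 in Lox/Δ3 cells. The groups did not overlap (log2 difference 0.64 ± 0.20 SE; 95% interval 0.18 to 1.11; limma adjusted p = 0.148). Nefm, the medium neurofilament subunit, was at 6.24, 6.42 and 6.01 in Δ3/Δ3 and at 5.53, 5.79 and 5.84 in Lox/Δ3 cells, again with no overlap (0.50 ± 0.15 SE, limma adjusted p = 0.141). Its 2 other probes were below detection on all arrays. The light subunit Nefl was not detected.

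Stmn2, a microtubule-destabilizing protein of growing axons also called SCG10, had 2 kept probes. The brighter one was at 10.71, 11.20 and 10.39 on the Δ3/Δ3 arrays and at 11.85, 11.29 and 10.78 on the Lox/Δ3 arrays. Its mean level was at percentile 86.6 of all genes tested, so Stmn2 was not low in these cells. Of the 19 tested members, 16 were at or below the median level of all genes and 3 above. The groups overlapped (log2 difference -0.54 ± 0.30 SE, limma adjusted p = 0.387), and its weaker probe was at -0.20. On Δ3/Δ3 array 3 and on Lox/Δ3 array 3 the brighter probe was at its lowest for that genotype, as Vgf was. Its relative Stmn3 was not detected. Tubb3, the neuronal beta-tubulin, was close to the detection limit, with a difference of -0.29 (limma adjusted p = 0.427).

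Of Calb1, a calcium buffer protein, and Bdnf, a neurotrophin, the first was not detected. Bdnf was at 5.60, 5.92 and 6.41 in Δ3/Δ3 and at 6.09, 6.10 and 5.42 in Lox/Δ3 cells, with overlap and a difference of 0.11 ± 0.25 (SE, limma adjusted p = 0.871). Only 1 of its 6 probes was kept.

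**Figure D4:**
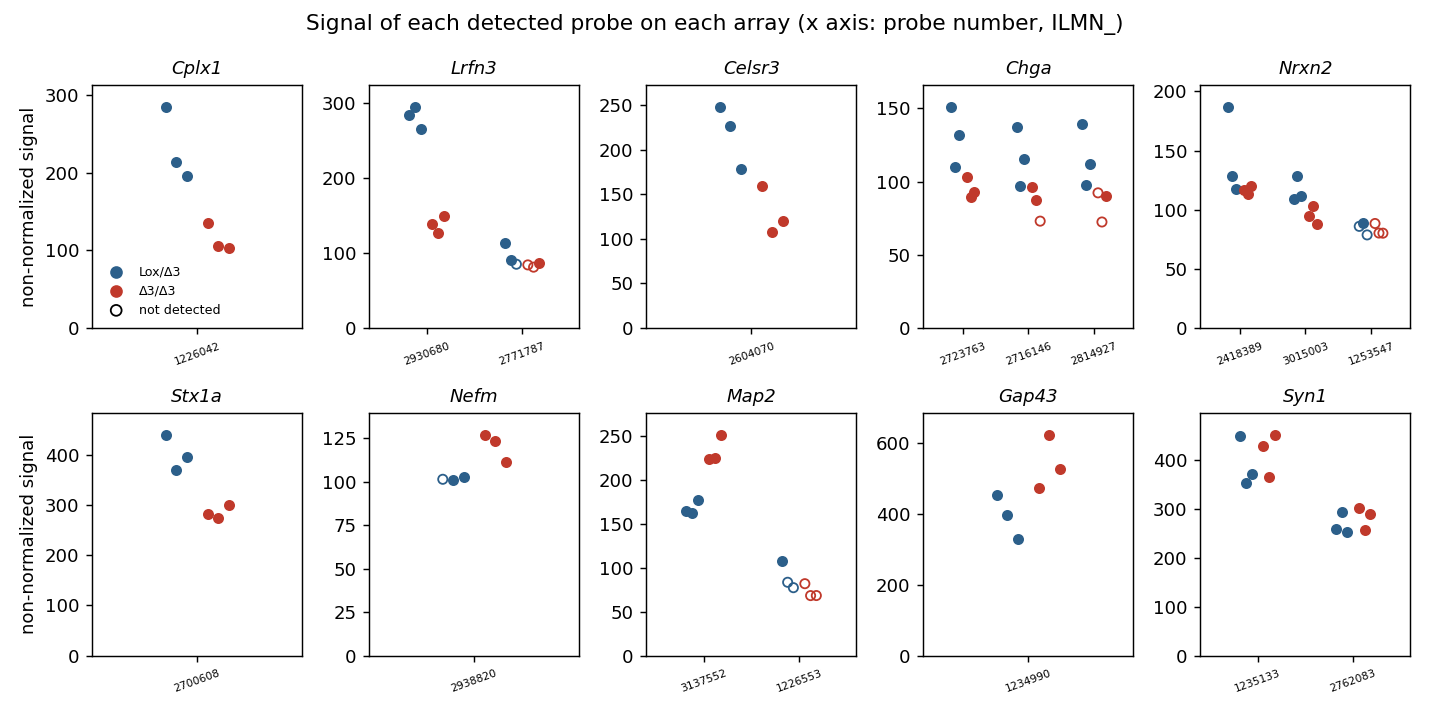
Non-normalized signal of each probe detected on at least 1 array, for 10 genes (blue, Lox/Δ3; red, Δ3/Δ3; open circles, not detected at p under 0.05); each panel has its own axis from 0. The 3 Chga probes are alike, whereas the 2 Lrfn3 probes differ in level and in the gap between genotypes.

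Of the 17 tested genes that were not called, 10 had a 95% interval that lay within a 2-fold change in either direction, among them Stx1a, Syn1 and Unc13a. These intervals are on the normalized log2 scale, which understates differences of genes near background, such as Tubb3, Unc13a, Nefm and Bdnf. Variation within genotypes was somewhat larger in these genes than usual, with a median pooled SD of 0.255 against 0.194 over all genes. Vgf, Syt4, Rab3a and Stmn2 had the largest, each above that of at least 94.9% of genes.

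Of the genes that work with or regulate REST, Kdm1a itself was the 1 that was called. Of 25 listed, 19 were tested, 1 was called lower (Kdm1a) and 0 higher in limma, with 3 lower and 1 higher at an unadjusted p under 0.05. At that unadjusted threshold the share was 21.1%, beside 18.2% of all genes tested. The corepressor genes Rcor1 and Rcor2, which encode the CoREST proteins that hold LSD1, had log2 differences of -0.20 each (limma adjusted p = 0.452 and 0.593). Arrays overlapped for both, but a further Rcor1 probe (ILMN_1215969), detected on all arrays, was at -0.40 with no overlap. Ehmt2, an H3K9 methyltransferase also known as G9a, was at -0.47 ± 0.15 (SE, limma adjusted p = 0.158). Without Kdm1a, the summed linear level of the other 18 genes was 18634 to 21012 on Δ3/Δ3 and 19666 to 20641 on Lox/Δ3 arrays, which overlap. Srrm4, the splicing factor that inactivates REST in neurons, was detected on no array.

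Of 69 other REST targets and neuronal genes, 32 were tested, 1 was called higher and 0 lower in limma, with 3 higher and 4 lower at an unadjusted p under 0.05. The median difference of the 32 was -0.01, and the share at that unadjusted threshold was 21.9%, beside 18.2% of all genes tested. The called gene, Rims1, encodes a scaffold of the presynaptic active zone that docks vesicles for release. It was at 8.10, 7.90 and 8.05 on the Δ3/Δ3 arrays and at 6.44, 7.03 and 6.96 on the Lox/Δ3 arrays, a rise of 2.31-fold (log2 difference 1.21 ± 0.18 SE, limma adjusted p = 0.0290). The call was lost without Δ3/Δ3 array 1, 2 or 3 (limma adjusted p = 0.109, 0.103 and 0.104) and with no filter on weak probes (0.0909). A further Rims1 probe was detected on 1 Δ3/Δ3 array, and the other 2 were not detected on any array. Syt5, a vesicle synaptotagmin, was at 1.17 ± 0.25 (SE, limma adjusted p = 0.0657). Of the 59 listed genes with a probe, 24 were detected on no array, among them the transmitter enzyme genes Chat and Th.

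Markers of neural progenitors and glia were largely undetected. Of 15 annotated progenitor markers 9 were detected on no array, among them Sox1, Pax6 and Neurog1. Of the 4 tested, 0 passed in limma and 2 (50%) had an unadjusted p under 0.05, beside 18.2% of all genes tested. Those 2, Otx2 at 0.61 and Gbx2 at -1.45 (limma adjusted p = 0.184 and 0.199), are also expressed in early embryonic cells. Of 7 annotated glial markers 5 were detected on no array, among them Gfap and Sox10. The summed linear level of the progenitor markers was 3080 to 4866 on Δ3/Δ3 and 3076 to 7226 on Lox/Δ3 arrays, and that of the 2 tested glial markers 174 to 235 and 135 to 212. Most of the progenitor sum is Otx2 and Gbx2, at log2 levels of 9.51 or more. The other 2 tested, given after their values were seen, were Nes at 0.08 and Neurod1 at -0.13, both with overlapping arrays. Their levels were 7.61 or less.

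Of 11 fibroblast markers 5 were tested and 0 passed in limma, with 3 higher and 0 lower at an unadjusted p under 0.05. This was 60% of the 5, beside 18.2% of all genes tested. The summed linear level of the 5 tested was 5889 to 8171 on Δ3/Δ3 and 4103 to 4480 on Lox/Δ3 arrays, with Thy1, which neurons also express, at 1.61 and Mmp2 at 0.97 (limma adjusted p = 0.0522 and 0.0599). The other 3 tested markers are given after their values were seen: Vim was at 0.62, Fn1 at 0.23 and the collagen gene Col1a1 at -0.67, Fn1 and Col1a1 with overlapping arrays (limma adjusted p = 0.201, 0.474 and 0.596). The fibroblast genes Col1a2, Col3a1, Postn, S100a4 and Twist2 were detected on no array. Primitive endoderm markers summed to 8789 to 12254 on Δ3/Δ3 and 8589 to 29207 on Lox/Δ3 arrays, the highest being Lox/Δ3 array 3. Their part in the differences of the neuronal genes was not tested. Without Lox/Δ3 array 3 the differences of Cplx1 and Lrfn3 were -1.46 and -1.31.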

How the data were processed

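Total RNA of 6 samples was measured on Illumina bead arrays. The authors deposited non-normalized intensity values and, beside them, a detection p-value for each probe. Their value table holds the same intensity values scaled so that each array's median is 1000, as its columns show. The scanner software is not given in the sources used here.

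Probes were named from the platform annotation, updated through RefSeq (GRCm38.p6): 34885 of 45281 probes had 1 symbol, 18 several and 10378 none, and 34818 of the first matched RefSeq. No member probe was found through an older alias alone (0). Signals were corrected with limma's nec from the detection p-values (offset 16), quantile normalized and taken to log2, so differences of weak genes are understated. Kept probes had a detection p under 0.05 on at least 3 arrays. The kept probe with the highest mean stood for its gene. Groups, from the titles, were compared with lmFit and eBayes (limma 3.58.1, R 4.3.3), genotype as the single term, two-sided, Benjamini-Hochberg over 10711 genes. The fit was tested on simulated data. Figures used Python 3.11.15 and matplotlib 3.10.9. Slide positions and scan dates are not in the files used. Probe sequences were not used here, so binding to near-identical transcripts was not examined.

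Members, lists and tests were chosen with earlier results of these data known. Every member was to be named, with all arrays for called members and the 3 with the smallest p in each role, and from each other list the 2 genes with the smallest p. The marker lists not described gave no call: 0 of 15 embryonic stem cell markers (Tcl1 at 0.56, Utf1 at -0.41) and 0 of 12 primitive endoderm markers (Sox7 at -1.09, Gata4 at -0.27), with 1 at an unadjusted p under 0.05 in each, while glial markers Mbp and Aldh1l1 stood at 0.43 and 0.06 (all limma). For the embryonic stem cell and primitive endoderm lists the share at that unadjusted threshold was 6.67% and 8.33%, beside 18.2% of all genes tested. Alternatives covered background, normalization, filter, probe choice, the authors' values, array weights, a trend with robust eBayes, the replicate number as a block and each array left out.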

Additional observations from a re-analysis of the deposited data

How the results depend on the processing

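Among the alternatives for background, normalization, filter, probe choice, source of values and model, Cplx1 and Lrfn3 were both called lower except in 1 setting: with no filter on weak probes 1 gene was called lower, Lrfn3 (Cplx1 at a limma adjusted p of 0.0862), and the median of the members, then 35 genes, was -0.038. Leaving out 1 array at a time gave 0 to 3 genes called lower, 0 to 1 called higher and medians between -0.38 and -0.15. The highest counts came without Lox/Δ3 array 3, where 275 of all genes were called, beside 140 with every array. Without Lox/Δ3 array 1 or 2 the count over all genes was 45 and 63. No array could be spared among the Δ3/Δ3 arrays: without any 1 of them 0 genes of all 10711 were called in limma, although 1551 to 1798 had an unadjusted p under 0.05. Same-numbered arrays of the genotypes deviated together with correlations of 0.358, 0.067 and 0.402, so the numbers were not taken as pairs, and not every array correlated best with its own number. With the replicate number as a block 1 gene was called higher, Map2, and 3 lower, Celsr3 added, while the count over all genes went from 140 to 373. Array weights likewise gave 1 called higher and 3 lower, with 512 over all genes. Other counts over all genes were 24 with no filter, 261 with median scaling, which put the median of all genes at -0.10, and 111 with cyclic loess. Of 339 gene values under alternatives, 323 kept their side of the threshold, 9 lost a call and 7 gained one. No called difference changed sign. For the 14 members with a probe but no detection on any array these arrays bound only the reading of the probes, not the level of the gene. Scn3b and L1cam were detected on too few arrays to be tested.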
